A study of Mus musculus with 9 samples.

Results

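Interferon-stimulated genes are genes that a cell switches on when interferon binds its surface, and 9 of them were followed here in mouse liver during thioacetamide fibrosis and after its withdrawal. They were Isg15, Usp18, Irf7, Stat2, Ifit1, Ifit2, Ifit3, Oasl2 and Rsad2, chosen by name. Each name matched 1 row of the deposited expression table, so the 9 genes are 9 of the 21873 genes in it, and all 9 were among the 14094 genes tested. The table covered bulk liver RNA of 9 male C57BL/6 mice, aged 8 weeks at the start. The control group (n = 3) received normal saline intraperitoneally for 8 weeks. The TAA group (n = 3) received thioacetamide (TAA), a hepatotoxin, by the same route for 8 weeks. The recovery group (n = 3) had the same 8 weeks of TAA and then 8 weeks without injections, so these mice were 8 weeks older than the others when the liver was taken, and no age-matched untreated mice were analysed here. The labels give no transgene or deletion for any group.

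Type I interferons (interferon-alpha and interferon-beta) bind the receptor formed by Ifnar1 and Ifnar2, whose kinases Jak1 and Tyk2 phosphorylate Stat2. It joins Irf9 in a complex named ISGF3, which binds a DNA element called the interferon-stimulated response element (ISRE) before its target genes. Type III interferons use a different receptor, Ifnlr1 with Il10rb, and lead to the same complex, and interferon-gamma, with a receptor of its own, acts mainly on an element called GAS. In the liver the products of these genes are best known for limiting virus growth. The 9 genes cover the loop from factor to effector: Stat2 carries the signal, Irf7 drives further interferon transcription, Isg15 is a ubiquitin-like protein attached to other proteins, Usp18 removes it and also restrains the receptor, and the Ifit proteins, Oasl2 and Rsad2 act against virus RNA or replication.

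The ISRE is shown because it is the sequence these genes are known to share and was not used to choose them. The core GAAANNGAAA was searched on both strands (TTTCNNTTTC on the other) in the 250 bases before each RefSeq transcription start of GRCm38.p6. RefSeq windows were found for 8 of the 9 genes, all but Usp18, and 5 of these 8 genes (62.5%) held the core, against 936 of 27025 genes in the whole table of promoters (3.46%). Each stretch below reads 5′ to 3′ along the gene's strand, with the core in capitals and 20 bases on each side. The stretches lie at chr4:156200855-156200916 on the minus strand (Isg15), chr19:34640765-34640833 on the plus strand (Ifit1), chr19:34583353-34583436 on the plus strand (Ifit3), chr10:128270256-128270305 on the plus strand (Stat2) and chr12:26456543-26456592 on the minus strand (Rsad2).
Isg15: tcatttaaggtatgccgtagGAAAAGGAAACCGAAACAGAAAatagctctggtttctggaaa
Ifit1: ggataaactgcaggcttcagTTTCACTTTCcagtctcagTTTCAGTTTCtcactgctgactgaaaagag
Ifit3: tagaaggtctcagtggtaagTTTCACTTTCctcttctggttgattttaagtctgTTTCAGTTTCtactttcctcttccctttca
Stat2: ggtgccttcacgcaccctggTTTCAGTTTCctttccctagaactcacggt
Rsad2: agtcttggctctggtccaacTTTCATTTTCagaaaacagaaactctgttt

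Isg15 held 3 overlapping matches, which form the single capital run, Ifit1 and Ifit3 held 2 each, and Stat2 and Rsad2 held 1 each. The first match began 78 bases before the start in Isg15, 104 in Ifit1, 156 in Ifit3, 222 in Stat2 and 120 in Rsad2. The windows of Ifit2, Irf7 and Oasl2 held no such letters, which says nothing of sites elsewhere or of looser forms of the element. The GAS core TTCNNNGAA was found in 1 of the 8 genes, Ifit2, and in 8.13% of all genes with a window. Of the genes that rose in the TAA group below, Isg15 and Ifit3 hold the ISRE core, and Ifit2 and Oasl2 do not.

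Expression is given as scaled FPKM: the deposited FPKM (fragments mapped to a gene, per kilobase of its length and per M mapped fragments), divided by 1 factor per library so that the median gene is level between libraries. These factors lay at 0.827 to 0.878 (control), 1.29 to 1.38 (TAA) and 0.893 to 0.907 (recovery). Without them the median of all genes would sit 0.63 higher in TAA than control mice on the log2 scale, and at -0.55 in recovery versus TAA mice, so each change below is relative to the median gene. Groups were compared with limma on log2(scaled FPKM + 0.1). A gene passed the test at a Benjamini-Hochberg adjusted p under 0.05 over all 14094 genes, and was called a differentially expressed gene (DEG) if the fold change was also at least 2. The depth, estimated from the steps between low values, was 27.1 to 40.8 M fragments per library, which puts 37 to 157 fragments per library behind the values of Isg15. The mice were separate animals. The p-values set a group difference against the spread between these 3 mice a group, which limma draws towards that of genes of similar level. In bulk liver, fewer cells of a type and less RNA per cell cannot be told apart.

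Hepatocyte markers (6 genes, summed scaled FPKM) were abundant in all libraries, which fits the liver label. Their sums were 37856 to 41535 in control, 24046 to 31205 in TAA and 47265 to 49762 in recovery mice. The lower sums of the TAA group rest on the scaling, since without the factors the TAA and control mice overlapped. One library stood apart: control mouse 1 had a monocyte and other macrophage sum (8 genes) of 43.8, against 12.4 and 11.7 in control mice 2 and 3 and 34.3 to 48.0 in the TAA group, and a Kupffer cell sum (5 genes) of 34.5 against 105 and 110. Results are therefore also given without that mouse where it matters.

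In TAA versus control mice, Isg15, Usp18, Ifit2, Ifit3 and Oasl2 rose, Ifit1 fell, and Irf7, Stat2 and Rsad2 did not pass the test. That is 5 of 9 genes higher, where 28.2% of all genes passed in that direction, and 1 of 9 lower, where 26.3% passed. As DEGs, 2 of the 9 were higher (Ifit2 and Oasl2; 17% of all genes) and 0 lower (8.02% of all genes, with Ifit1 and Irf7 at an unadjusted limma p under 0.05). The median log2 fold change of the 9 genes was 0.46, against 0.02 over all genes. On the FPKM as deposited, 7 genes were higher and 0 lower. There 9962 of all 14094 genes passed in either direction, against 7683 with scaling, and the median of all genes was 0.63. With scaling but without control mouse 1, 5 of the 9 genes were higher and 1 lower.

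In recovery versus TAA mice, Irf7 and Rsad2 rose, Isg15, Usp18, Ifit2 and Oasl2 fell, and Ifit1, Ifit3 and Stat2 did not pass the test. That is 2 of 9 genes higher, where 24.5% of all genes passed in that direction, and 4 of 9 lower, where 26% passed. The DEGs were Irf7, higher (1 of 9; 7.12% of all genes), and Ifit2, lower (1 of 9; 14.3% of all genes). The median was -0.17, against -0.01 over all genes. On the FPKM as deposited, 1 gene was higher and 6 lower. There 9474 of all 14094 genes passed in either direction, against 7121 with scaling, and the median of all genes was -0.55. This comparison and the preceding one share the TAA libraries, so a high or low value there moves both.

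In recovery versus control mice, limma called 0 of the 9 genes in either direction, where 1.33% of all genes passed as higher and 1.38% as lower. As DEGs, 0 of the 9 were higher (0.582% of all genes) and 0 lower (0.412% of all genes), also without control mouse 1. At an unadjusted p under 0.05, 4 genes were higher (Irf7, Stat2, Oasl2 and Rsad2) and 0 lower, and with all 9 libraries in 1 fit 1 gene passed, Irf7 (adjusted p = 0.0376). The median was 0.36, against 0.01 over all genes.

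**Figure D1:**
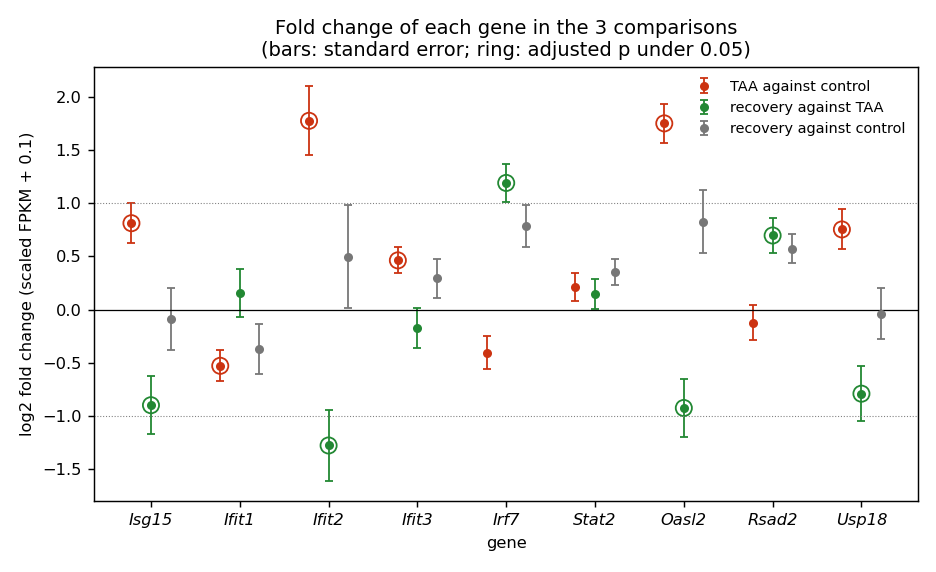
Log2 fold change (log2 of scaled FPKM + 0.1, vertical axis) of each of the 9 genes in the 3 comparisons, with bars for the limma standard error and a ring where the adjusted p was under 0.05. Ifit2 and Oasl2 stand highest in TAA versus control mice, at 1.78 and 1.75, Irf7 is the highest in recovery versus TAA mice, at 1.19, and no grey point for recovery versus control mice carries a ring.

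Irf7 and Stat2 are the 2 transcription factors among the 9 genes. Irf7 (ENSMUSG00000025498, chr7:141262706-141266481 on mm10) is the factor that drives most interferon-alpha genes. Its scaled FPKM was 8.44, 8.19 and 6.17 in the control mice, 4.98, 5.66 and 6.44 in the TAA mice, and 15.5, 14.2 and 10.1 in the recovery mice. All 3 recovery mice stood above all other mice, and the control and TAA groups overlapped through control mouse 3. The recovery group (13.3 ± 2.83, SD, n = 3) was 2.28-fold above the TAA group (5.69 ± 0.734), with a log2 fold change of 1.19 ± 0.18 (SE, limma adjusted p = 0.000973). This rise kept its call when any 1 mouse was left out, with a highest adjusted p of 0.00556, and was 0.64 with the FPKM as deposited (limma adjusted p = 0.0157), past the test but no longer a DEG. Against the control group (7.60 ± 1.25) the recovery group was 1.73-fold higher, at 0.79 ± 0.20 on the log2 scale, which missed the threshold (limma adjusted p = 0.0854). TAA versus control gave -0.40 ± 0.16 (limma adjusted p = 0.0602), a value that turned to 0.22 with the FPKM as deposited and passed the test when control mouse 3 was left out (-0.55, limma adjusted p = 0.0188). Of the exons of Irf7, 45 bases (1.2%) overlap Phrf1 on the opposite strand, and whether counting used strand is not stated.

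Stat2 (ENSMUSG00000040033, chr10:128270559-128292849), the ISGF3 subunit particular to type I and type III signalling, had the smallest range of group differences among the 9 genes, at most 0.36 on the log2 scale. It was at 6.15, 6.02 and 7.03 in the control mice, 6.37, 7.70 and 8.32 in the TAA mice, and 9.49, 7.43 and 7.85 in the recovery mice. The recovery mice all lay above the control mice, while the TAA mice overlapped both. The log2 fold changes were 0.21 ± 0.13 for TAA against control (limma adjusted p = 0.199), 0.14 ± 0.14 for recovery against TAA (adjusted p = 0.422) and 0.36 ± 0.12 for recovery against control (adjusted p = 0.152). On the FPKM as deposited, Stat2 passed the test in both of the first 2, at 0.84 and -0.41.

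Isg15 and Usp18 work on the same modification. Isg15 (ENSMUSG00000035692, chr4:156199455-156200796) encodes the ubiquitin-like protein that is attached to other proteins. It was at 2.31, 1.61 and 1.93 in the control mice, 2.83, 4.03 and 3.66 in the TAA mice, and 2.86, 1.40 and 1.48 in the recovery mice. All TAA mice exceeded all control mice, and recovery mice 2 and 3 lay below every control mouse, whereas recovery mouse 1 lay just above TAA mouse 1. The rise in the TAA group was 1.76-fold (log2 fold change of 0.81 ± 0.19, limma adjusted p = 0.00772). It then fell to 0.536 of the TAA level (-0.90 ± 0.27, limma adjusted p = 0.0266). Against control the recovery group gave -0.09 ± 0.29 (limma adjusted p = 0.890).

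Usp18 (ENSMUSG00000030107, chr6:121245906-121270917), the protease that strips Isg15 from its targets, was likewise highest in the TAA group. It was at 4.04, 5.19 and 4.39 in the control mice, 5.81, 9.19 and 8.49 in the TAA mice, and 6.39, 3.96 and 3.36 in the recovery mice. All TAA mice again exceeded all control mice, and recovery mouse 1 again overlapped the TAA range. It rose 1.69-fold in the TAA group (0.75 ± 0.19, limma adjusted p = 0.0112) and fell to 0.578 of that level in the recovery group (-0.79 ± 0.26, limma adjusted p = 0.0353). Recovery against control gave -0.04 ± 0.24 (limma adjusted p = 0.949). An antisense long noncoding RNA, Gm44148, overlaps 124 exon bases of Usp18 (4.4%), and reads of the 2 cannot be told apart without strand.

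The falls of Isg15 and Usp18 in the recovery group depended on 4 of the 6 mice and on the processing. Leaving out TAA mouse 2 or 3 or recovery mouse 2 or 3 took the adjusted p of Isg15 to 0.079 to 0.0866 and that of Usp18 to 0.102 to 0.112, and the log2 fold changes of -0.60 to -0.86 kept their sign. Leaving out TAA mouse 1 or recovery mouse 1 kept both calls. Both were also lost without a filter on low values (limma adjusted p of 0.058 for Isg15 and 0.0725 for Usp18) and with the replicate number as a block (0.051 and 0.0678), and that of Isg15 with quantile normalization (0.0691). The 3 enzymes that attach Isg15 were also read, and where a gene has a pair of log2 values from here on, the first is TAA versus control and the second recovery versus TAA. The activating enzyme Uba7 rose in the TAA group (0.67, adjusted p = 0.0493, not past the test with quantile normalization) and fell in the recovery group (-0.70, adjusted p = 0.00548, limma), and the conjugating enzyme Ube2l6 (-0.34 and -0.27) and the ligase Herc6 (0.16 and 0.01) did not pass in either comparison.

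**Figure D2:**
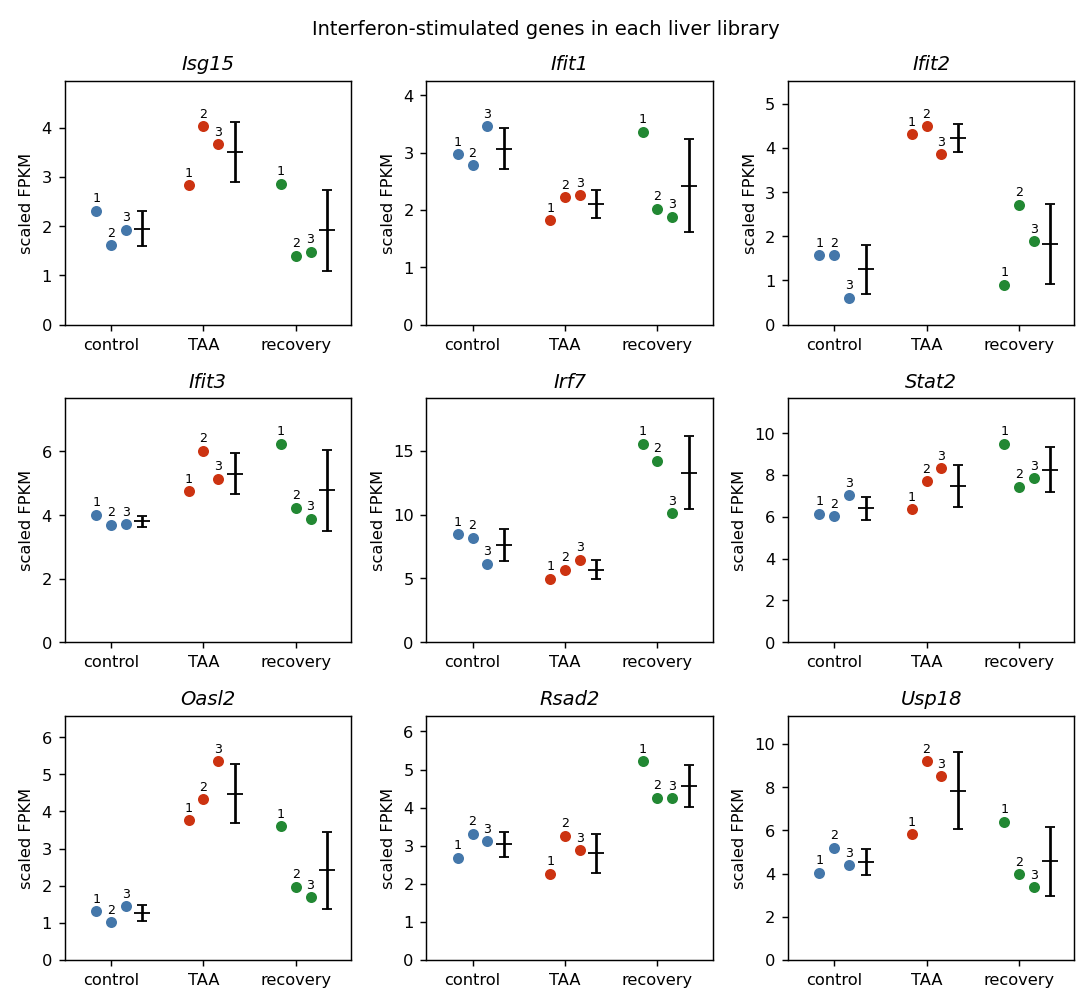
Scaled FPKM (vertical axis, starting at 0) of each of the 9 genes in each library, numbered by mouse, with the group mean and SD (n = 3) at the right of each group. The 3 TAA mice lie above the 3 control mice for Isg15, Ifit2, Ifit3, Oasl2 and Usp18 and below them for Ifit1, and recovery mouse 1 is the highest of its group in every panel but that of Ifit2.

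The 3 Ifit genes, members of a cluster on chromosome 19 whose proteins bind virus RNA, did not move in one direction. Ifit2 (ENSMUSG00000045932, chr19:34550694-34576419) was at 1.57, 1.57 and 0.614 in the control mice, 4.32, 4.49 and 3.86 in the TAA mice, and 0.907, 2.72 and 1.88 in the recovery mice. Its TAA mice stood clear of both other groups, which overlapped each other. The TAA group (4.22 ± 0.325) was 3.43-fold above the control group (1.25 ± 0.554), at 1.78 ± 0.32 on the log2 scale (limma adjusted p = 0.00272), and the recovery group (1.84 ± 0.906) was at 0.412 of the TAA level (-1.28 ± 0.33, limma adjusted p = 0.0144). Both calls held in every fit with 1 mouse left out, with highest adjusted p of 0.0124 and 0.0445. Recovery against control gave 0.50 ± 0.48 (limma adjusted p = 0.580).

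Ifit1 (ENSMUSG00000034459, chr19:34640871-34650009) was at 2.97, 2.78 and 3.46 in the control mice, 1.82, 2.22 and 2.25 in the TAA mice, and 3.37, 2.02 and 1.88 in the recovery mice. The control mice all lay above the TAA mice, and recovery mouse 1 lay in the control range while recovery mice 2 and 3 lay in that of the TAA group. It fell in the TAA group to 0.693 of the control level (-0.53 ± 0.15, limma adjusted p = 0.0174), a direction that turned to 0.09 with the FPKM as deposited. The call was lost without control mouse 3 (-0.44, adjusted p = 0.0607) or TAA mouse 1 (-0.43, adjusted p = 0.0638, limma). Recovery against TAA gave 0.16 ± 0.23 (limma adjusted p = 0.583) and recovery against control -0.37 ± 0.23 (limma adjusted p = 0.391).

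Ifit3 (ENSMUSG00000074896, chr19:34583531-34588731) was at 4.01, 3.69 and 3.71 in the control mice, 4.75, 6.02 and 5.15 in the TAA mice, and 6.24, 4.23 and 3.88 in the recovery mice. The TAA mice lay above the control mice, and the recovery mice ran from the control range to above the TAA range. It rose 1.38-fold in the TAA group (0.46 ± 0.12, limma adjusted p = 0.0142), while recovery against TAA gave -0.17 ± 0.19 (limma adjusted p = 0.482) and recovery against control 0.29 ± 0.19 (limma adjusted p = 0.391). These values are uncertain because Ifit3 has a near copy, Ifit3b, whose transcript is 98% identical over 1697 aligned bases, so reads may have been split or dropped between them. The Ifit3b stretch with the ISRE cores, at chr19:34607749-34607832, has the same letters as that of Ifit3 printed above. Ifit3b was at 1.03, 1.24 and 1.14 in the control mice, 1.43, 1.61 and 1.92 in the TAA mice, and 1.57, 1.18 and 1.31 in the recovery mice. Its log2 fold change in the TAA group was 0.50 (limma adjusted p = 0.0355), but -0.03 with quantile normalization, and that for recovery versus TAA was -0.27 (limma adjusted p = 0.230). The other pairs of Ifit transcripts were 62.0% to 67.4% identical over their aligned bases.

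Oasl2 (ENSMUSG00000029561, chr5:114896936-114912234), an oligoadenylate synthetase-like protein, had the smallest p of the 9 genes in the TAA group. It was at 1.31, 1.02 and 1.44 in the control mice, 3.76, 4.33 and 5.35 in the TAA mice, and 3.60, 1.96 and 1.68 in the recovery mice. The 3 groups did not overlap: every TAA mouse was above every recovery mouse, and every recovery mouse was above every control mouse. The TAA group (4.48 ± 0.804) was 3.37-fold above the control group (1.26 ± 0.217), at 1.75 ± 0.18 on the log2 scale (limma adjusted p = 0.000192). The recovery group (2.41 ± 1.03) was at 0.526 of the TAA level (-0.93 ± 0.27, limma adjusted p = 0.0237), and 1.77-fold above control without passing the test (0.83 ± 0.30, limma adjusted p = 0.166). The fall in the recovery group lost its call when TAA mouse 2 or 3 or recovery mouse 2 or 3 was left out (-0.71 to -0.94, limma adjusted p of 0.0557 to 0.0903), and without a filter on low values (limma adjusted p = 0.0533).

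Rsad2 (ENSMUSG00000020641, chr12:26442746-26456452) encodes viperin, an enzyme that makes a chain-terminating nucleotide. It was at 2.68, 3.31 and 3.12 in the control mice, 2.26, 3.26 and 2.89 in the TAA mice, and 5.21, 4.26 and 4.25 in the recovery mice. As with Irf7, all recovery mice stood above all other mice, and the control and TAA mice were intermingled. The recovery group (4.57 ± 0.553) was 1.62-fold above the TAA group (2.80 ± 0.505), at 0.70 ± 0.16 on the log2 scale (limma adjusted p = 0.00881). With the FPKM as deposited the value was 0.15 and did not pass (limma adjusted p = 0.456). Recovery against control gave 0.57 ± 0.14 (limma adjusted p = 0.0767), and TAA against control -0.12 ± 0.17 (limma adjusted p = 0.559), which turned to 0.49 with the FPKM as deposited and passed the test there as higher (limma adjusted p = 0.041).

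Within a group, the mice differed in ways that many of the 9 genes shared. Recovery mouse 1 was the highest of its group for 8 of the 9 genes, the exception being Ifit2, for which it was the lowest. Its median over the 9 genes was 0.61 above the mean of the other 2 recovery mice on the log2 scale. Over all tested genes it was the highest of the group for 35.0%. TAA mouse 1 was the lowest of its group for 8 of the 9 genes, again all but Ifit2, against 27.0% of all genes. Since the 9 genes come from the same libraries, these counts describe single mice and carry no test.

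The marker lists give values beside this pattern. In recovery mouse 1 the summed scaled FPKM of lymphocyte markers (9 genes) was 1.53, against 3.64 and 4.18 in recovery mice 2 and 3. The plasmacytoid dendritic cell sum (5 genes, a cell type known for making interferon-alpha) was 0.390 against 0.467 and 0.649, with Cox6a2 at 0 in all 3 recovery mice. The Kupffer cell sum was 123 against 134 and 169. The 8 lists of cells other than hepatocytes were all lowest in recovery mouse 1 among the recovery mice, and the hepatocyte sum was lowest there too, at 47265. The part of these cell types in the levels of the 9 genes was not tested.

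**Figure D3:**
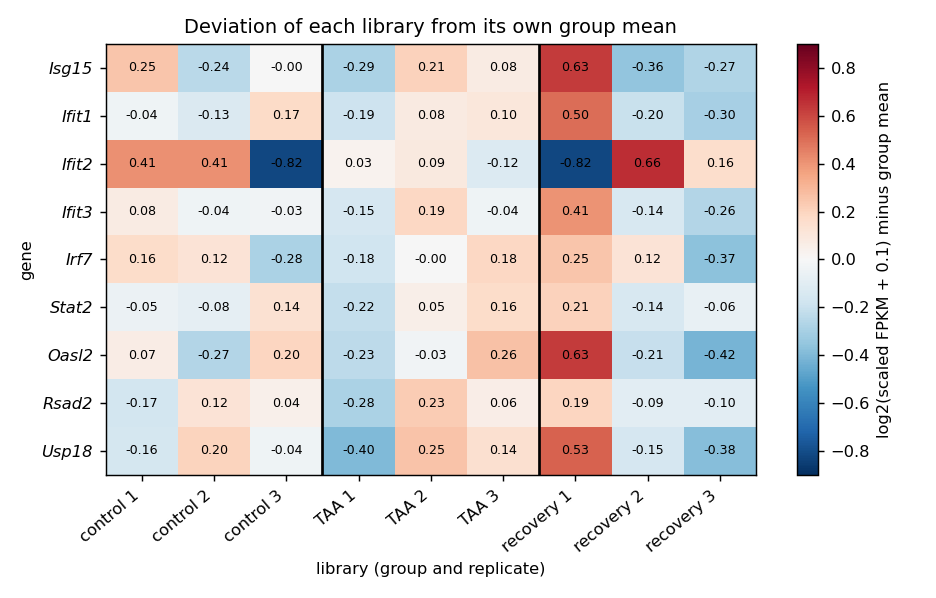
Heat map of log2(scaled FPKM + 0.1) of each gene (rows) in each library (columns) minus the mean of its own group, with the value in each cell and black lines between groups. The column of recovery mouse 1 runs from 0.19 to 0.63 in 8 genes with -0.82 for Ifit2, and that of TAA mouse 1 is below 0 for all genes but Ifit2.

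A list of 46 other interferon-stimulated genes, 44 of them tested, was read beside the 9 genes. The TAA group had 24 of the 44 higher and 4 lower, where 28.2% and 26.3% of all genes were, and the median log2 fold change was 0.46. The largest rises were Ifi27l2a, a mitochondrial protein (2.22), Phf11d (1.67) and Xaf1 (1.47), and the largest falls Ifi27 (-0.91), Helz2 (-0.71) and Dtx3l (-0.63). With the FPKM as deposited none of these 3 falls passed the test, at -0.27, -0.07 and 0.01, and that of Ifi27 did not pass with quantile normalization either (-0.37). In recovery versus TAA mice 8 were higher and 10 lower, where 24.5% and 26% of all genes were. Ifi27 (1.28), Tor3a (1.16) and Bst2 (0.79), which encodes the virus-holding protein tetherin, rose most there, and the oligoadenylate synthetase family members Oasl1 (-1.31) and Oas1a (-1.03) and Phf11d (-0.97) fell most. The rise of Bst2 was 0.23 with the FPKM as deposited, and 0.24 without passing the test with quantile normalization (limma adjusted p = 0.0619). Oas1a has close paralogs, and its reads may be shared with them. In recovery versus control mice 4 were higher and 0 lower, where 1.33% and 1.38% of all genes were, led by Tor3a (1.42), Ifi27l2a (1.39) and Bst2 (0.97). Without scaling, the counts were 36 and 0, 3 and 32, and 6 and 0 in the 3 comparisons. With quantile normalization they were 19 and 5, 4 and 11, and 5 and 0. Over all 14094 genes, 9962, 9474 and 399 passed in either direction without scaling, and 7028, 6548 and 440 with quantile normalization. The same totals apply to the counts of the lists below. Recovery mouse 1 was the highest of its group for 33 of the 44 genes, and TAA mouse 1 the lowest of its group for 19. Over all tested genes these shares were 35.0% and 27.0%. Control mouse 1 was the highest of its group for 25 of the 44, and for 38.3% of all genes. The ISRE core was found in 13 of the 34 genes of the list with a RefSeq window (38.2%).

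The interferons themselves were at or near 0 in whole liver. Ifna1, Ifna2, Ifna4, Ifna5, Ifnb1, Ifne and Ifnl2 were listed at 0 in all 9 libraries, Ifnl3 was above 0 only in TAA mouse 3, at 0.0325, and Ifng was at most 0.158. Of the 10 ligands only Ifnk passed the filter on low values. It lay between 0.535 and 0.784 in all libraries and did not pass the test in any comparison, although with quantile normalization it passed as lower in TAA versus control mice and as higher in recovery versus TAA mice. It sits opposite Mob3b, whose reads could count towards it.

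Of the 6 receptor chains, 3 rose and 2 fell under TAA, and 1 was higher and 3 lower in recovery versus TAA mice, where 28.2% and 26.3%, then 24.5% and 26%, of all genes were. The counts without scaling were 4 and 1, then 1 and 5, and with quantile normalization 3 and 1, then 1 and 3. Ifnar2, the high-affinity chain for interferon-alpha and interferon-beta, was at 12.5, 15.2 and 15.3 in the control mice, 7.19, 5.85 and 6.70 in the TAA mice, and 17.1, 20.8 and 19.0 in the recovery mice. The TAA mice were below all others, and the recovery mice were above all others. It fell in the TAA group (-1.11 ± 0.12, limma adjusted p = 0.000249) and rose in the recovery group (1.51 ± 0.12, limma adjusted p = 4.86e-05), both as a DEG and with the same sign under each scaling. Its partner Ifnar1 fell in the TAA group (-0.48, limma adjusted p = 0.00596), but was at 0.15 with the FPKM as deposited, and did not pass with quantile normalization (-0.28). Ifnlr1, the type III interferon chain, was at 0.0324 to 0.0629 in the control mice, 0.563 to 0.710 in the TAA mice and 0.0663 to 0.0891 in the recovery mice, and changed by 2.31 and -2.04 on the log2 scale with the added 0.1, which understates so low a gene. The control and recovery values of Ifnlr1 lay under the filter of 0.1, so it was tested only through its TAA values. This favoured both of its calls, which are in the counts above. Il10rb rose (0.93) and fell (-0.70), as did Ifngr1 (0.70 and -0.62), and Ifngr2 was at 0.01 and -0.18 without passing. Ifnlr1 is known from epithelial cells, and biliary markers (4 genes, summed scaled FPKM) were at 1.95 to 2.93 in control, 16.9 to 26.3 in TAA and 4.24 to 6.69 in recovery mice. Their part in the level of Ifnlr1 was not tested.

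Among 10 kinases and factors downstream, 2 rose and 3 fell under TAA, and 2 were higher and 2 lower in recovery versus TAA mice, close to the 28.2% and 26.3%, then 24.5% and 26%, of all genes. These counts became, on the FPKM as deposited, 5 and 0, then 0 and 7, and with quantile normalization 4 and 3, then 1 and 3. Irf9, the DNA-binding subunit of ISGF3, fell in the TAA group (-0.70, limma adjusted p = 0.0116), but was at -0.07 with the FPKM as deposited (limma adjusted p = 0.738). Irf3, which switches on the first wave of interferon-beta, fell (-0.66, but -0.02 with the FPKM as deposited, not past the test) and then rose (0.39, but -0.16 as deposited, and 0.22 without passing with quantile normalization). Irf2 fell (-0.50, but 0.13 as deposited) and rose (0.44, but -0.11 as deposited), Irf8, a myeloid factor, rose in the TAA group (0.66), and Jak2 rose and fell (0.32 and -0.37). Tyk2 fell in the recovery group (-0.55), and Jak1, Irf1 and Irf5 passed in neither comparison.

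Of 14 nucleic acid sensors and adaptors, 6 were higher and 4 lower under TAA, and 5 were higher and 6 lower in recovery versus TAA mice, where 28.2% and 26.3%, then 24.5% and 26%, of all genes were. Without scaling, the counts were 10 and 1, then 1 and 8, and with quantile normalization 3 and 3, then 4 and 3. The DNA sensor Cgas rose and fell (0.96 and -0.98), as did its adaptor Tmem173, also called STING (1.28 and -0.97), and Tlr9, an endosomal DNA sensor (1.49 and -0.95). With quantile normalization neither Cgas (0.04 and -0.23) nor Tlr9 (0.57 and -0.21) passed the test in either comparison, and Tmem173 passed in both. Mavs, the adaptor of the cytosolic RNA sensors, went the other way (-1.31 and 0.98) and passed the test under each scaling. Myd88, an adaptor of Toll-like receptors, also fell and rose (-0.63 and 0.66), and Ticam1, another such adaptor, fell under TAA (-0.61). The nucleic acid sensor Zbp1 rose in recovery versus TAA mice (0.79). None of these 4 changes passed with the FPKM as deposited (-0.0021 and 0.10, 0.02, and 0.25). Ticam1 also passed as higher in recovery versus TAA mice, but was at -0.13 with the FPKM as deposited. Of 11 genes that restrain the pathway, 2 rose and 3 fell under TAA, and 2 rose and 2 fell in recovery versus TAA mice, where 28.2% and 26.3%, then 24.5% and 26%, of all genes were. These counts were 7 and 1, then 1 and 7, with the FPKM as deposited and 2 and 4, then 2 and 1, with quantile normalization. The DNA exonuclease Trex1 was a DEG in both comparisons, at -1.04 and then 1.20. Samhd1, which breaks down nucleotides, rose and fell (0.63 and -0.38), as did Rnaseh2b (0.60 and -0.51), a subunit of ribonuclease H2, while Rnaseh2c, another subunit, fell and rose (-0.65 and 0.61). With the FPKM as deposited Rnaseh2c passed in neither (-0.02 and 0.05), and with quantile normalization the second values of Rnaseh2b (-0.36) and Rnaseh2c (0.41) did not pass. Socs3, which blocks cytokine receptors, fell under TAA (-0.55, but 0.07 with the FPKM as deposited).

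Genes linked mainly to interferon-gamma were read for contrast. Of 28 tested, 11 rose and 5 fell under TAA (median 0.34 on the log2 scale), and 7 were higher and 4 lower in recovery versus TAA mice, with a median of 0.19. Over all genes these shares were 28.2% and 26.3%, then 24.5% and 26%. The counts without scaling were 17 and 0, then 2 and 9, and with quantile normalization 7 and 4, then 11 and 4. The chemokine Cxcl10 rose and fell (2.25 and -1.53), as did Ciita, the master regulator of MHC class II genes (1.62 and -1.20), and the guanylate-binding protein gene Gbp8 (1.28 and -1.19). Gbp2b moved the other way (-1.03 and 2.30), as did Nlrc5, a regulator of MHC class I genes (-0.82 and 0.82). The immunity-related GTPase genes Iigp1 (-0.86 under TAA) and Irgm2 (1.004 in recovery versus TAA mice) were also among the largest changes. With the FPKM as deposited the falls of Gbp2b (-0.52), Nlrc5 (-0.19) and Iigp1 (-0.22) and the rise of Nlrc5 (0.27) did not pass, nor did the fall of Iigp1 with quantile normalization (-0.17). Tgtp2 (1.41) and Gbp6 (1.12, but 0.95 without passing with quantile normalization, limma adjusted p = 0.051) were the 2 of 28 that passed in recovery versus control mice, where 1.33% of all genes passed as higher, and both have close copies that may share their reads. Recovery mouse 1 was the highest of its group for 10 of these 28 genes (35.7%) and the lowest for 14 (50%). Over all tested genes these shares were 35.0% and 36.9%, so the first was near that of all genes. Its place for the 9 genes was unlike this, a difference that was not tested. Control mouse 1 was the highest of its group for 15 of the 28, and for 38.3% of all genes. The ISRE core was found in 11 of the 17 genes of the list with a RefSeq window (64.7%). The GAS core was found in 7 of the 17 (41.2%), and in 8.13% of all genes with a window.

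**Figure D4:**
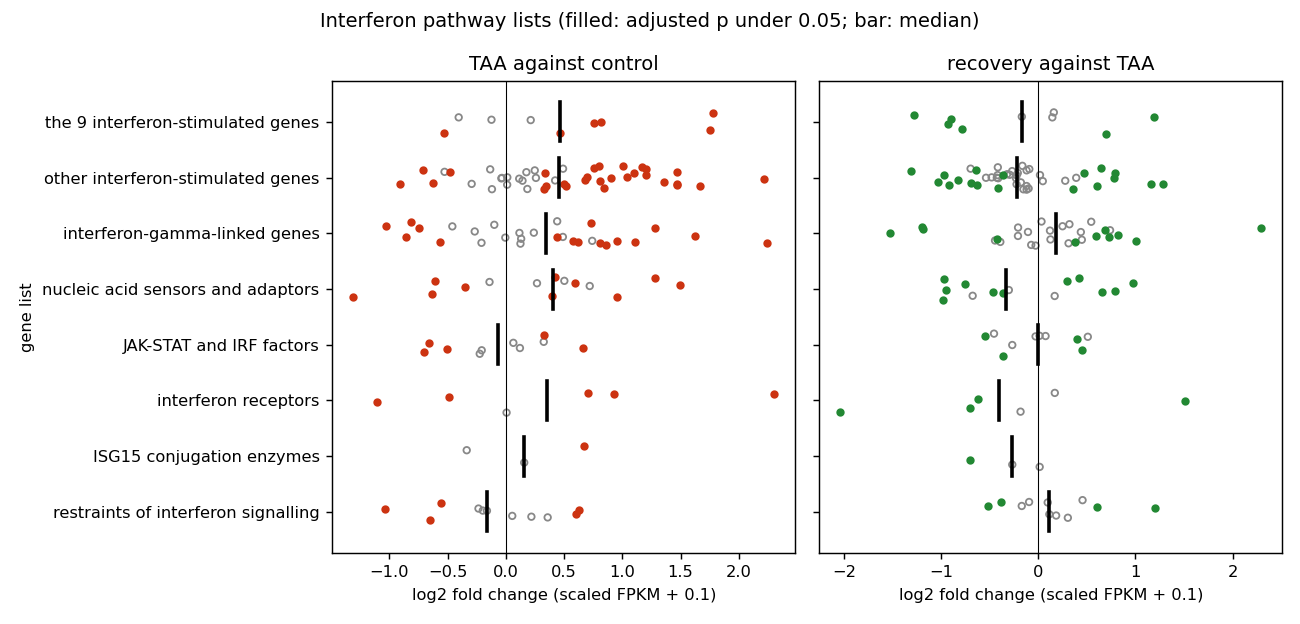
Log2 fold change (horizontal axis, log2 of scaled FPKM + 0.1) of each tested gene of the pathway lists (rows) in TAA versus control mice (left) and recovery versus TAA mice (right), filled where the adjusted p was under 0.05, with a bar at the median of each list. The bars of the 9 genes sit at 0.46 and -0.17, those of the other interferon-stimulated genes at 0.46 and -0.22, and that of the interferon-gamma-linked genes is at 0.19 on the right.

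The summed marker RNA of cell types other than hepatocytes also differed between the groups. Monocyte and other macrophage markers (8 genes, summed scaled FPKM) were at 11.7 to 43.8 in control, 34.3 to 48.0 in TAA and 16.9 to 24.5 in recovery mice. Neutrophil markers (4 genes) were at 0.800 to 4.12, 14.0 to 20.0 and 3.10 to 4.86, with Ly6g at 0 in all control and all recovery mice. Neutrophils and monocytes are blood cells that enter an injured liver. Plasmacytoid dendritic cell markers (5 genes) were at 0.169 to 0.501, 0.747 to 1.75 and 0.390 to 0.649. Stellate cell and myofibroblast markers (5 genes) were at 28.1 to 36.9, 114 to 148 and 26.5 to 34.1, and lymphocyte markers at 1.88 to 3.25, 3.75 to 5.20 and 1.53 to 4.18. These sums were all higher in the TAA group than in the other mice except the macrophage sum of control mouse 1 and the lymphocyte sum of recovery mouse 3. Kupffer cell markers were at 34.5 to 110, 74.2 to 89.7 and 123 to 169, and sinusoidal endothelial markers (4 genes) at 32.7 to 61.5, 37.5 to 50.4 and 55.5 to 64.7. All 3 recovery mice were above all other mice for the Kupffer cell sum, and they overlapped the control mice for the endothelial sum. Without the scaling factors the recovery and TAA mice overlapped for the Kupffer cell sum. Of its 5 genes, 4 passed as higher against TAA mice and 0 against control mice, where 24.5% and 1.33% of all genes did. The part of these cells in the levels of the 9 genes was not tested.

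The genes outside the list whose profile over the 9 libraries was nearest to the mean profile of the 9 genes were Tsc22d2, Gga2, Ptpn23, Foxk2 and Sdad1. The measure was the root mean square difference of log2(scaled FPKM + 0.1), each gene centred on its own mean, among the 11092 genes whose mean FPKM was 1 or more. The value was 0.0805 for Tsc22d2 and 0.103 to 0.112 for the other 4. Among the 9 genes it ran from 0.0814 for Ifit3 to 0.787 for Ifit2, with Irf7 at 0.595 and Oasl2 at 0.545. The 5 genes were picked for the smallest values among the 11092, and the 9 genes were not. That the 5 lie nearer was therefore fixed by the choice and says nothing of the 9 genes.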

How the data were processed

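The authors mapped paired-end RNA-seq reads with HISAT2 2.2.1 to mm10 (GRCm38), counted them with featureCounts 1.5.0-p3, as the submitters' processing notes list, and deposited 1 table of FPKM, with 1 column per library. FPKM are not counts, so no count test was run, in place of the DESeq2 test that the authors used. Each library was divided by its median-of-ratios factor, taken over the genes above 0 in all 9 libraries. Genes were kept if their mean FPKM reached 0.1, and log2(scaled FPKM + 0.1) was tested by limma (version 3.58.1, R 4.3.3, eBayes with a trend) on the 6 libraries of each comparison, without a replicate term. Fold changes on this scale understate those of low genes. P-values were adjusted over all 14094 genes. The 9 genes and the pathway and marker lists were chosen with earlier results of these data known. The genes named from the longer lists are the 3 largest rises and the 3 largest falls past the threshold in a comparison. Symbols of 27 genes had been turned into dates, and none of these is named here. Gene loci were identical to GENCODE M21 for 92.4% of genes, and promoter sequences are from RefSeq (GRCm38.p6). Depth was estimated from steps of low values, of which 54.6% to 60.6% per library were whole fragments, too few to recover counts. Fragment numbers behind a value limit counting error only. The scaling, the fit and the calls, but not the depth estimate, were tested on simulated FPKM whose spread was set in advance. Apart from counting error, that spread was the same for all genes and was not taken from these mice. Of the genes changed 2-fold there, the threshold itself, 44.4%, 42.0% and 34.6% were recovered as DEGs in the 3 comparisons. Of those changed 4-fold, 93.1% to 94.8% were. These shares may be too high for genes that varied more than the simulated ones, such as Isg15, Ifit2 and Oasl2 in the recovery mice. A gene that is not a DEG here may thus still have changed. Whether counting used strand is not given in the sources used here. Same-numbered mice did not deviate together (correlations of -0.07 to 0.12 between groups, across genes), so mice were not paired. Small RNA libraries were not analysed here. The values of 1 gene of the factor list are not reported here.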

Additional observations from a re-analysis of the deposited data

How the results depend on the processing

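Depth limits Isg15 most, and 3 mice a group limit all comparisons. Of the 144 combinations of gene and alternative in each comparison, 130, 114 and 136 kept the direction and the side of the threshold for the TAA group against control, the recovery group against TAA and the recovery group against control. Alternatives covered the added constant, the filter, the scaling, the libraries in a fit, the variance trend, a replicate block, limma's treat and each mouse left out. A gene that missed the threshold in both fits with the same sign counts as kept. For recovery against control 0 of the 9 genes passed in the main fit, so the 136 says little of stability. The cause of the changes below was not tested.

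With the FPKM as deposited, 0 of the 9 genes were lower and 5 were DEGs in the TAA group, and Ifit1 (0.085), Irf7 (0.22) and Rsad2 (0.49) turned sign. Against TAA, that setting gave in the recovery group 1 gene higher, 0 DEGs higher and 4 DEGs lower, with Ifit1 at -0.38 and Stat2 at -0.41, and in the recovery group against control Usp18 was at 0.038. Over all genes it gave 4382 DEGs higher and 421 lower in the TAA group (2389 and 1131 with scaling) and 409 and 3728 in the recovery group against TAA (1003 and 2014 with scaling). Quantile normalization gave 1534 and 1355, then 1198 and 1379. With all 9 libraries in 1 fit, 0 genes were lower in the TAA group and 1, Irf7, was higher in the recovery group against control. Against a fold of 2 (treat), 1 gene was higher, as a DEG too, and 0 lower in the TAA group, and 0 passed in either direction, DEGs included, in the recovery group against TAA. With an added constant of 1, 0 DEGs were lower in the recovery group against TAA. No filter on low values left 1 gene lower there, with Isg15, Usp18 and Oasl2 lost.

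The replicate block left 2 genes lower in the recovery group against TAA, with Isg15 at an adjusted p of 0.051 and Usp18 at 0.0678 by limma, and changed no other call of the 9 genes. Over all genes it moved the number past the adjusted p from 7683 to 7254, from 7121 to 6709, and from 381 to 19 in the 3 comparisons. Usp18 there also missed the threshold without the variance trend (limma adjusted p = 0.0543) and Isg15 with quantile normalization (limma adjusted p = 0.0691).

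With each mouse left out, 0 to 1 gene was lower in the TAA group (0 without TAA mouse 1), 1 to 4 genes were lower in the recovery group against TAA, and 1 to 3 were DEGs lower there (3 without TAA mouse 1 or recovery mouse 1). Rsad2 in the TAA group ran from -0.24 to 0.019, turning sign without TAA mouse 1, and Ifit1 in the recovery group against TAA from -0.092 to 0.31, turning without recovery mouse 1. For recovery against control, Isg15 ran from -0.40 to 0.092, above 0 without control mouse 1 or recovery mouse 2 or 3, and Usp18 from -0.30 to 0.15, above 0 without control mouse 2 or recovery mouse 2 or 3.

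Over all genes, DEGs higher and lower in the TAA group were 890 and 890 with an added constant of 1, 1176 and 1028 at a mean FPKM of at least 1, and 941 and 500 with treat. For recovery against TAA they were 749 and 711, 920 and 975, and 401 and 683. For recovery against control (82 and 58) they were 40 and 40 with an added constant of 1, 27 and 21 without a filter, 151 and 84 with all 9 libraries, 49 and 36 without the trend, 9 and 8 with the replicate block and 0 with treat, and leaving out 1 mouse gave 15 to 69 higher and 16 to 41 lower.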
